A study of Mus musculus with 10 samples.

Results

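The genes described here encode the core of cholesterol synthesis. They are the enzymes Hmgcs1, Idi1, Fdft1, Sqle, Lss and Cyp51, the transcription factor gene Srebf2, and Insig1, whose product restrains that factor. They were chosen by name, with earlier results of these data known but no rule on measured values, and each was represented in the deposited expression table by 1 line, so that 8 of its 55020 lines are described. No receptor or transporter for cholesterol uptake is among the 8; uptake genes are given below as a separate list. The samples were 10 tumours of the mouse hepatoma line Hepa1-6 (HEPA1-6 in the labels), grown under the skin of C57/BL6 mice for 4 weeks and profiled by poly-A RNA sequencing. In 5 of the mice the treatment was GSK343, which blocks the histone methyltransferase EZH2 (tumours numbered 1 to 5), and in the other 5 it was vehicle (tumours 1, 2, 3, 5 and 6). The vehicle assignment rests on elimination between both conditions named for the series. The protocol also mentions anti-asialo-GM1, an antibody that depletes natural killer cells, and a control antibody, and the labels do not tie either to a tumour. Sex, age and the dose of GSK343 are not stated in the labels. A tumour holds host cells beside the engrafted line, so in these bulk samples fewer cells of a type and less RNA per cell cannot be told apart.

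Cholesterol is built from acetyl-CoA through mevalonate, isoprenoid diphosphates, squalene and lanosterol. SREBP-2, the protein of Srebf2, is held in the endoplasmic reticulum by INSIG proteins when sterols are plentiful. When sterols fall it is carried to the Golgi, cleaved and released to the nucleus, where it activates most genes of the pathway through sterol regulatory elements, together with the CCAAT-binding factor NF-Y and with Sp1. The liver and hepatoma cells derived from it are among the main sites of this synthesis.

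Promoter sequences are shown for 3 of the genes because Hmgcs1 was the gene most correlated with the others across the tumours, Srebf2 encodes the factor that acts on them and Lss was among the closest correlates of Hmgcs1, as described below. The table of RefSeq promoters (build GRCm38.p6) held 6 of the 8 genes, all but Sqle and Fdft1. The stretches run 5′ to 3′ on the plus strand and stop before the first base annotated for the gene in either annotation. Capitals mark the core of a sterol regulatory element (TCACNCCA) and the CCAAT box, which reads ATTGG where it lies on the other strand. The Hmgcs1 stretch is chr13:119690101-119690350, the Srebf2 stretch chr15:82147019-82147180 and the Lss stretch chr10:76531355-76531587.
Hmgcs1: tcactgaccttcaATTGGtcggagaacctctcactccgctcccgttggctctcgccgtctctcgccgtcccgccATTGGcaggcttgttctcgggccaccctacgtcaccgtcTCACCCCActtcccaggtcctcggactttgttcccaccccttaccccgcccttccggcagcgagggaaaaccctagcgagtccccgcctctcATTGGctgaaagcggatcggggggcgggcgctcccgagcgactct
Srebf2: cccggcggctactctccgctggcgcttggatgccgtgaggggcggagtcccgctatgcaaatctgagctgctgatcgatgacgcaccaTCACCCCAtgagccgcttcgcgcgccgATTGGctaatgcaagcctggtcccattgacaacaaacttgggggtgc
Lss: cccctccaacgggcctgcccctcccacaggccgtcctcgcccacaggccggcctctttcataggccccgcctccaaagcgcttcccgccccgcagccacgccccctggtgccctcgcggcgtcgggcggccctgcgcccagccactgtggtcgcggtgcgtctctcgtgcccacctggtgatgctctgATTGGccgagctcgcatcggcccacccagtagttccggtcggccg
Both strands of the 250 bases before each RefSeq start were searched. The sterol regulatory element core was found in Hmgcs1, 137 to 130 bases before the start, and in Srebf2, 162 to 155 bases before it, and in 3.67% of all 32851 promoters of that length. The CCAAT box was found in all 6 genes and in 33.8% of all promoters. In Idi1 both matches, 45 to 41 and 14 to 10 bases before the RefSeq start, lie inside the deposited gene coordinates. So does the only match of Cyp51, 29 to 25 bases before its RefSeq start. GGGCGG, the letters of a GC box, was also found in all 6 and in 32.7% of all promoters. Its only match in Idi1, 69 to 64 bases before the RefSeq start, also lies inside the deposited gene coordinates. CACGTG, an E box, was found in Insig1 alone among the 6 and in 6.02% of all promoters. No matched stretches overlapped each other in the 6 genes. Such matches describe the letters and are not binding sites.

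Expression is given as FPKM, fragment counts divided by exon length and by library size, a level per length that can be set side by side between genes. The sums over all lines were 574547 to 623397 FPKM per tumour. Depth is not stated; from the spacing of low values it was inferred as 38.4 to 50.8 M (mega) reads per library, an inference only. Mitochondrial transcripts took 2.64% to 7.17% of the summed values. Alb, the albumin gene, averaged 2810 ± 278 FPKM in GSK343 tumours and 3129 ± 318 FPKM in vehicle tumours (SD, n = 5 each), so this defining marker of the hepatoma cells was present. Some marker lists of other cell types also differed in level, with no marker called after adjustment. An unadjusted p under 0.05 with a higher value in GSK343 tumours, found for 10.7% of all tested lines, was found for 8 of 10 pan-leukocyte, 7 of 8 macrophage, 5 of 6 skeletal muscle and 4 of 7 fibroblast markers, with median log2 fold changes of 0.78, 0.93, 1.66 and 0.55. The same held for 3 of 8 T and NK cell markers, with a median of 0.82. No tested endothelial, keratinocyte or proliferation marker had an unadjusted p under 0.05 in either direction. Their medians were 0.23, -1.16 and -0.06. All 9 hepatocyte and Hepa1-6 markers had log2 fold changes below 0, with a median of -0.27, and Apoa1, Ttr and Apoa2 had an unadjusted p under 0.05, where 6.86% of lines were lower at that level. The part of these cell types in the results below was not tested. The summed level of the 10 pan-leukocyte markers was 708 to 1205 FPKM in GSK343 tumours and 345 to 1026 FPKM in vehicle tumours, with the vehicle maximum in tumour 2 and no marker at 0 throughout.

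Expression did not pass the test between GSK343 and vehicle tumours for any of the 8 genes. All 8 had a mean of at least 1 FPKM and were tested, and 0 of 8 were called at an adjusted p under 0.05, where 0.0828% of the 14496 tested lines were called (limma on log2(FPKM + 1), Benjamini-Hochberg adjustment over all lines). None of the 8 had an unadjusted p under 0.05, where 17.6% of lines had. In none did the groups separate without overlap, as they did in 2.62% of lines. Of the fitted log2 fold changes, 3 were above 0 and 5 below 0, and their median was -0.05, beside -0.01 over all tested lines.

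**Figure D1:**
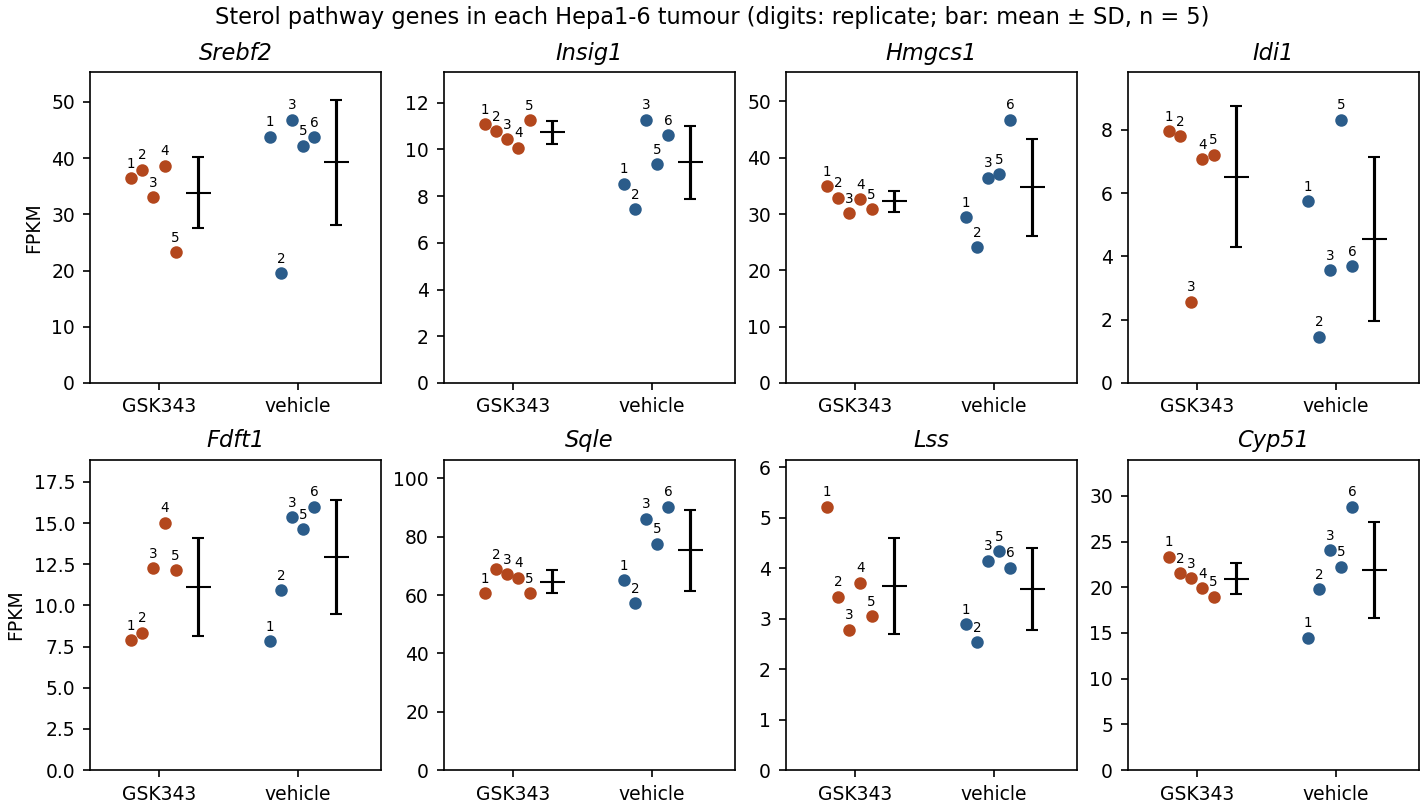
Level of each of the 8 genes in FPKM (vertical axes, from 0) in the 5 GSK343 tumours and the 5 vehicle tumours; digits are replicate numbers and the bars are the mean and SD. The groups overlap for every gene, the GSK343 tumours lie close together for Insig1, Hmgcs1, Sqle and Cyp51, and vehicle tumour 2 is the lowest of all 10 for 6 of the 8 genes.

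Srebf2 (ENSMUSG00000022463.8, chromosome 15, 82147181 to 82205379, plus strand, mm10), the gene of the SREBP-2 precursor, had 36.4, 37.97, 33.0, 38.6 and 23.3 FPKM in GSK343 tumours 1 to 5, and 43.8, 19.5, 46.8, 42.2 and 43.8 FPKM in vehicle tumours 1, 2, 3, 5 and 6. Of the vehicle tumours, 4 were above every GSK343 tumour and tumour 2 was below every one of them. The means were 33.9 ± 6.30 and 39.2 ± 11.2 FPKM (SD, n = 5 each), and the log2 fold change was -0.17 with a 95% confidence interval of -0.68 to 0.35 (limma adjusted p = 0.739). Adding the pan-leukocyte score to the model gave 0.40 on the log2 scale, still uncalled, leaving out vehicle tumour 2 gave -0.39 (limma adjusted p = 0.134), and without GSK343 tumours 3 and 5 together or vehicle tumours 1 and 3 together it was near 0.

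Insig1 (ENSMUSG00000045294.11, chromosome 5, 28071363 to 28078662, plus strand) encodes the endoplasmic reticulum protein that retains the SCAP-SREBP complex and is itself a target of that pathway. It had 11.1, 10.8, 10.4, 10.1 and 11.3 FPKM in GSK343 tumours 1 to 5, and 8.53, 7.45, 11.3, 9.36 and 10.6 FPKM in vehicle tumours 1, 2, 3, 5 and 6. Vehicle tumours 1, 2 and 5 were below every GSK343 tumour, while vehicle tumour 6 lay among them and vehicle tumour 3 just above them. The log2 fold change was 0.18 with an interval of -0.05 to 0.40 and an adjusted p of 0.384, the smallest among the 8 genes (limma). Its relative Insig2, which shares the retention role, averaged 26.0 ± 1.74 FPKM in GSK343 tumours and 30.4 ± 3.25 FPKM in vehicle tumours, with a log2 fold change of -0.22 and an adjusted p of 0.231 (limma).

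Hmgcs1 (ENSMUSG00000093930.2, chromosome 13, 119690379 to 119708260, plus strand) encodes the cytosolic synthase that makes HMG-CoA, an early intermediate on the way to mevalonate. It had 34.96, 32.9, 30.2, 32.6 and 30.8 FPKM in GSK343 tumours 1 to 5, and 29.4, 24.1, 36.4, 37.1 and 46.8 FPKM in vehicle tumours 1, 2, 3, 5 and 6. All 5 GSK343 tumours fell between the lower and the upper vehicle tumours: vehicle 1 and 2 were below all of them, and vehicle 3, 5 and 6 above all of them. The means of 32.3 ± 1.88 and 34.8 ± 8.58 FPKM gave a log2 fold change of -0.07 with an interval of -0.40 to 0.26 (limma adjusted p = 0.830). The sign turned, to 0.04, when vehicle tumour 6 was left out.

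Idi1 (ENSMUSG00000058258.14, chromosome 13, 8885501 to 8892451, plus strand), the isomerase between the 5-carbon isoprenoid units, had 7.96, 7.79, 2.57, 7.06 and 7.22 FPKM in GSK343 tumours 1 to 5, and 5.74, 1.47, 3.57, 8.32 and 3.68 FPKM in vehicle tumours 1, 2, 3, 5 and 6. GSK343 tumour 3 stood apart below its group, and vehicle tumour 5 was the highest of all 10. The log2 fold change, 0.50, was the largest of the 8 in size and also the least precise, with an interval of -0.30 to 1.29 (limma adjusted p = 0.490). It was 1.305 (SE 0.366, limma adjusted p = 0.683) after adding the pan-leukocyte score to the model, when Idi1 alone of the 8 had an unadjusted p under 0.05, and 0.84 after adding the hepatocyte score instead. It was 0.75 without GSK343 tumour 3.

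Fdft1 (ENSMUSG00000021273.10, chromosome 14, 63145150 to 63179578, minus strand), squalene synthase and the first step committed to sterols, had 7.89, 8.35, 12.3, 15.03 and 12.2 FPKM in GSK343 tumours 1 to 5, and 7.83, 10.9, 15.4, 14.6 and 16.0 FPKM in vehicle tumours 1, 2, 3, 5 and 6. Both groups held low and high tumours, and the log2 fold change was -0.19 with an interval of -0.67 to 0.28 (limma adjusted p = 0.660). It was between -0.35, without vehicle tumour 1, and -0.092, without GSK343 tumour 1, when single tumours were left out, and -0.43 after adding the hepatocyte score to the model, uncalled in each case. The last 774 of its 4227 exon bases are shared with Ctsb, the cathepsin B gene on the opposite strand, which was at 112 to 291 FPKM. No source used here gives the strand setting of the quantification, and reads of Ctsb in that stretch cannot be told apart from reads of Fdft1.

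Sqle (ENSMUSG00000022351.14, chromosome 15, 59315077 to 59331192, plus strand) encodes squalene epoxidase, a flux-controlling enzyme of the pathway. It had 60.6, 68.8, 67.1, 66.0 and 60.5 FPKM in GSK343 tumours 1 to 5, and 65.2, 57.3, 86.2, 77.5 and 90.2 FPKM in vehicle tumours 1, 2, 3, 5 and 6. As for Hmgcs1, vehicle tumours 3, 5 and 6 were above every GSK343 tumour, and vehicle tumour 2 was below every one. The means were 64.6 ± 3.82 and 75.3 ± 13.9 FPKM, and the log2 fold change was -0.20 with an interval of -0.47 to 0.07 (limma adjusted p = 0.411, exact permutation p = 0.167 over all assignments of the 10 tumours, two-sided). After adding the pan-leukocyte score to the model it was -0.04.

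Lss (ENSMUSG00000033105.12, chromosome 10, 76531588 to 76557138, plus strand), lanosterol synthase, which closes the sterol rings, had 5.21, 3.44, 2.78, 3.71 and 3.04 FPKM in GSK343 tumours 1 to 5, and 2.89, 2.53, 4.14, 4.34 and 4.01 FPKM in vehicle tumours 1, 2, 3, 5 and 6. GSK343 tumour 1 was the highest of all 10 and the other tumours of both groups were interleaved. The log2 fold change was 0.01 with an interval of -0.34 to 0.37 (limma adjusted p = 0.974), and its sign turned, to -0.10, without GSK343 tumour 1. Cyp51 (ENSMUSG00000001467.5, chromosome 5, 4081145 to 4104746, minus strand), the demethylase that acts on lanosterol, had 23.4, 21.6, 20.96, 19.9 and 19.0 FPKM in GSK343 tumours 1 to 5, and 14.5, 19.8, 24.0, 22.2 and 28.8 FPKM in vehicle tumours 1, 2, 3, 5 and 6. The GSK343 tumours lay inside the vehicle range, and the log2 fold change was -0.03 with an interval of -0.36 to 0.30 (limma adjusted p = 0.937). The intervals of the 8 genes extend at most to -0.68 below 0 and, apart from Idi1, to 0.40 above it on the log2 scale. Without vehicle tumour 2 the log2 fold changes of Hmgcs1, Sqle and Idi1 were -0.19, -0.29 and 0.24; none of the 8 genes was called, and the smallest adjusted p was 0.122, for Sqle (limma).

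By level, Sqle led with a mean of 69.9 FPKM over all 10 tumours, at the 90.7 percentile of tested lines, and its lowest tumour was above the highest tumour of every other member. Srebf2 and Hmgcs1 followed at 36.5 and 33.5 FPKM and were not separated, since Srebf2 was the higher in 7 of 10 tumours. Cyp51 at 21.4 FPKM was below Hmgcs1 and above Fdft1 in 10 of 10 tumours each. Fdft1 at 12.04 FPKM and Insig1 at 10.1 FPKM changed places between tumours, Fdft1 being the higher in 7 of 10. Insig1 was above Idi1 in 10 of 10 tumours. Idi1 at 5.54 FPKM and Lss at 3.61 FPKM were again not separated, with Idi1 higher in 6 of 10. Lss stood at the 23.7 percentile of tested lines, so consecutive enzymes of the squalene segment differed widely in transcript level per length.

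**Figure D2:**
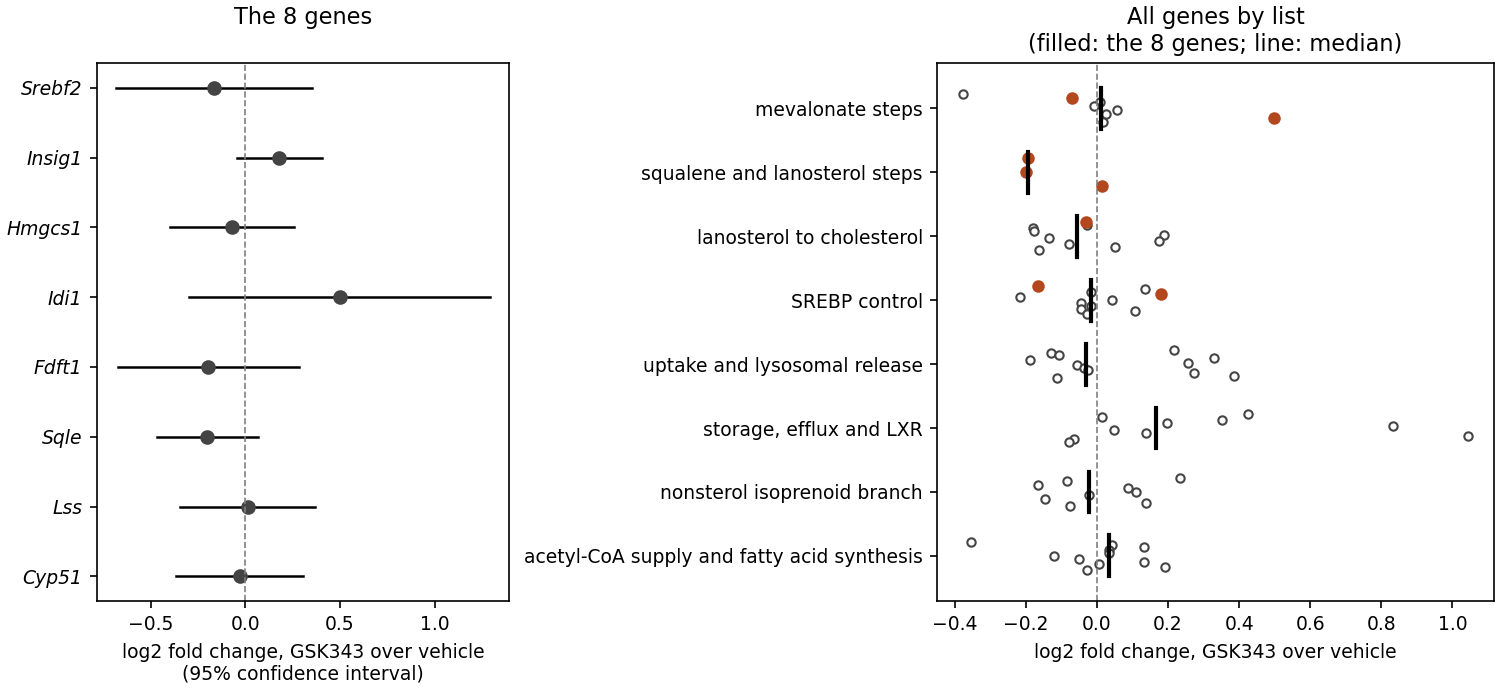
Log2 fold change of GSK343 over vehicle tumours for each of the 8 genes with its 95% confidence interval (left), and for every tested gene of 8 cholesterol-related lists (right), where filled points are the 8 genes and the vertical line is the list median. Every interval on the left includes 0; on the right the storage, efflux and LXR list has the highest median, 0.17.

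The rest of the pathway was read from lists chosen by textbook role. None of the genes on the 8 lists was called. Of the mevalonate enzymes 8 of 8 were tested, 0 had an unadjusted p under 0.05 and the median log2 fold change was 0.01. Acat2, the cytosolic thiolase of the first step, averaged 6.96 ± 2.62 FPKM in GSK343 tumours and 9.61 ± 4.01 FPKM in vehicle tumours, with a log2 fold change of -0.38 (limma adjusted p = 0.527). Pmvk and Mvd, the last kinase and the decarboxylase of the mevalonate steps, had log2 fold changes of 0.06 and 0.03. Fdft1, Sqle and Lss form the squalene and lanosterol list, with a median of -0.19. Among the 10 enzymes from lanosterol to cholesterol 0 had an unadjusted p under 0.05 and the median was -0.05. The smallest p-values there belonged to Lbr, a sterol reductase of the nuclear envelope, to the dehydrogenase Nsdhl and to the oxidase Msmo1, with log2 fold changes of -0.18, 0.19 and -0.18.

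Among 11 genes of SREBP control, Insig2 alone had an unadjusted p under 0.05, lower in GSK343 tumours as were 6.86% of all lines, and the list's median log2 fold change was -0.02. Srebf1, the relative of Srebf2 that favours fatty acid synthesis, averaged 40.4 ± 3.24 FPKM in GSK343 tumours and 36.8 ± 3.30 FPKM in vehicle tumours (log2 fold change 0.13). Faf2, a factor in the degradation of INSIG1, had a log2 fold change of 0.11. The uptake and lysosomal release list had 2 of 12 genes with an unadjusted p under 0.05, both higher in GSK343 tumours, as were 10.7% of all lines, and a median of -0.03. They were Mylip, a ubiquitin ligase induced by LXR, with 3.19 ± 0.444 FPKM in GSK343 tumours and 2.33 ± 0.285 FPKM in vehicle tumours (log2 fold change 0.33, limma adjusted p = 0.192), and Lipa, the lysosomal acid lipase, with 32.1 ± 5.50 and 24.3 ± 3.78 FPKM (log2 fold change 0.39, limma adjusted p = 0.211). The lysosomal cholesterol carrier Npc2 averaged 153 ± 12.7 FPKM in GSK343 tumours and 128 ± 28.1 FPKM in vehicle tumours.

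Of 13 genes for storage, efflux and LXR signalling, the sterol sensing arm that opposes SREBP-2, 10 were tested, 3 had an unadjusted p under 0.05, all higher in GSK343 tumours as were 10.7% of all lines, and the median log2 fold change was 0.17. These were the transporter Abcg1, with 9.22 ± 3.77 FPKM in GSK343 tumours and 4.75 ± 2.53 FPKM in vehicle tumours, the cholesterol 25-hydroxylase Ch25h, with 7.72 ± 3.99 and 3.37 ± 2.59 FPKM, and the ester hydrolase Nceh1, with 6.69 ± 1.32 and 5.003 ± 0.849 FPKM. Their log2 fold changes were 0.83, 1.05 and 0.35 and their adjusted p-values 0.220, 0.228 and 0.242 (limma). After adding the pan-leukocyte score to the model, the log2 fold changes of Abcg1, Ch25h, Nceh1, Npc2 and Lipa were -0.05, -0.14, 0.05, -0.05 and 0.04, and the part of leukocyte content in them was not tested. In the nonsterol isoprenoid branch, 1 of 9 genes had an unadjusted p under 0.05, where 6.86% of all lines were lower at that level. It was Nus1, a subunit of the dolichol-making prenyltransferase (log2 fold change -0.17, limma adjusted p = 0.247), and the list's median was -0.02. Ggps1, which makes geranylgeranyl diphosphate, had a log2 fold change of 0.23, and Fntb, the farnesyltransferase beta subunit, one of -0.15. Among acetyl-CoA supply and fatty acid genes, 11 of 12 were tested with a median of 0.03. The citrate carrier Slc25a1 alone of these had an unadjusted p under 0.05 (log2 fold change -0.35, SE 0.0548, limma adjusted p = 0.0578). At that level 6.86% of all lines were lower in GSK343 tumours. Acss2, an acetyl-CoA synthetase, and the desaturase Fads2 had log2 fold changes of 0.13 and 0.19.

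The spread between tumours of a group was also described, a measure chosen after the values were seen and not tested. The SD of log2(FPKM + 1) was smaller in GSK343 than in vehicle tumours for 7 of 8 genes, where it was smaller for 56.8% of the tested lines. For Hmgcs1 the SD was 0.0813 in GSK343 tumours and 0.352 in vehicle tumours, a ratio of 0.231 that lay at the 2.01 percentile of all lines. For Insig1 the SDs were 0.0594 and 0.217, a ratio of 0.274. Sqle and Cyp51 had ratios of 0.310 and 0.312, while Srebf2, Idi1, Fdft1 and Lss had 0.571, 0.786, 0.909 and 1.03. Over all lines the median SDs were 0.167 in GSK343 tumours and 0.182 in vehicle tumours. Without vehicle tumours 1 and 2, the lowest for most of the genes, the ratio was below 1 for 5 of 8 genes and for 36.9% of lines; it was then 0.414 for Hmgcs1, 0.476 for Insig1, 0.595 for Cyp51, 0.763 for Sqle and 0.964 for Idi1. The ratio was 5.97 for Fdft1, 5.92 for Lss and 3.92 for Srebf2, and the spread of those 3 genes was then the larger in GSK343 tumours. Vehicle tumours 1 and 2 were low in these same genes, and no GSK343 tumour was left out. That choice by itself tends to narrow the vehicle spread, so the change in the ratios cannot be read as a result.

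**Figure D3:**
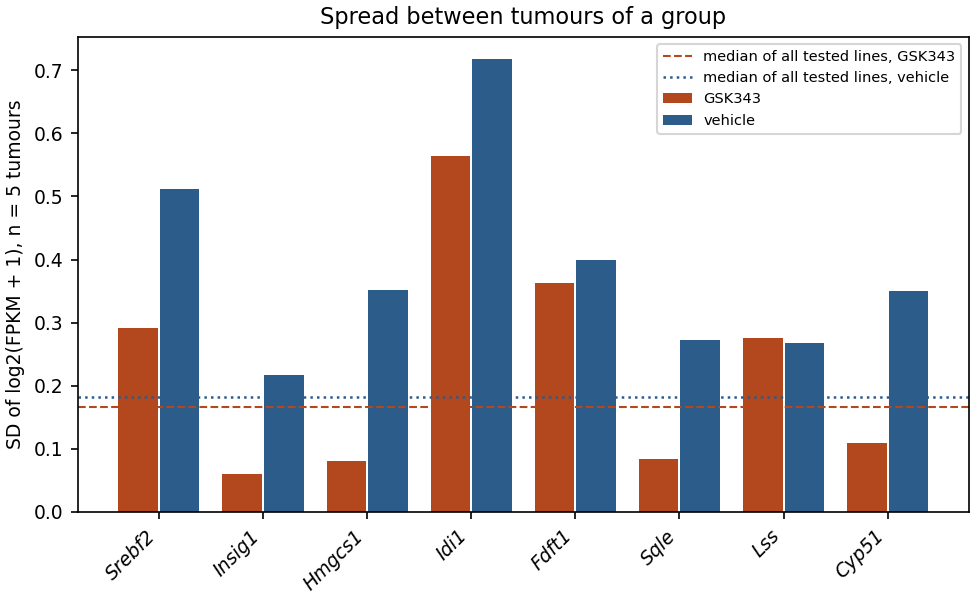
SD of log2(FPKM + 1) between the 5 GSK343 tumours and between the 5 vehicle tumours for each of the 8 genes (bars from 0), with dashed and dotted lines for the medians over all tested lines in GSK343 (0.167) and vehicle (0.182) tumours. The GSK343 bar is below the vehicle bar for 7 genes and slightly above it for Lss.

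Across the 10 tumours most pairs of the 8 genes had positively correlated levels, and few pairs passed the test. Vehicle tumour 2 was the lowest of all tumours for 6 genes and vehicle tumour 1 for Fdft1 and Cyp51. Vehicle tumour 6 was the highest for 4 genes, vehicle tumour 3 for 2, and vehicle tumour 5 and GSK343 tumour 1 for 1 each. The mean z-score over the 8 genes was 0.27, 0.05, -0.34, 0.17 and -0.29 in GSK343 tumours 1 to 5, and -0.70, -1.40, 0.71, 0.56 and 0.97 in vehicle tumours 1, 2, 3, 5 and 6. The GSK343 tumours were thus all nearer to the middle than any vehicle tumour.

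**Figure D4:**
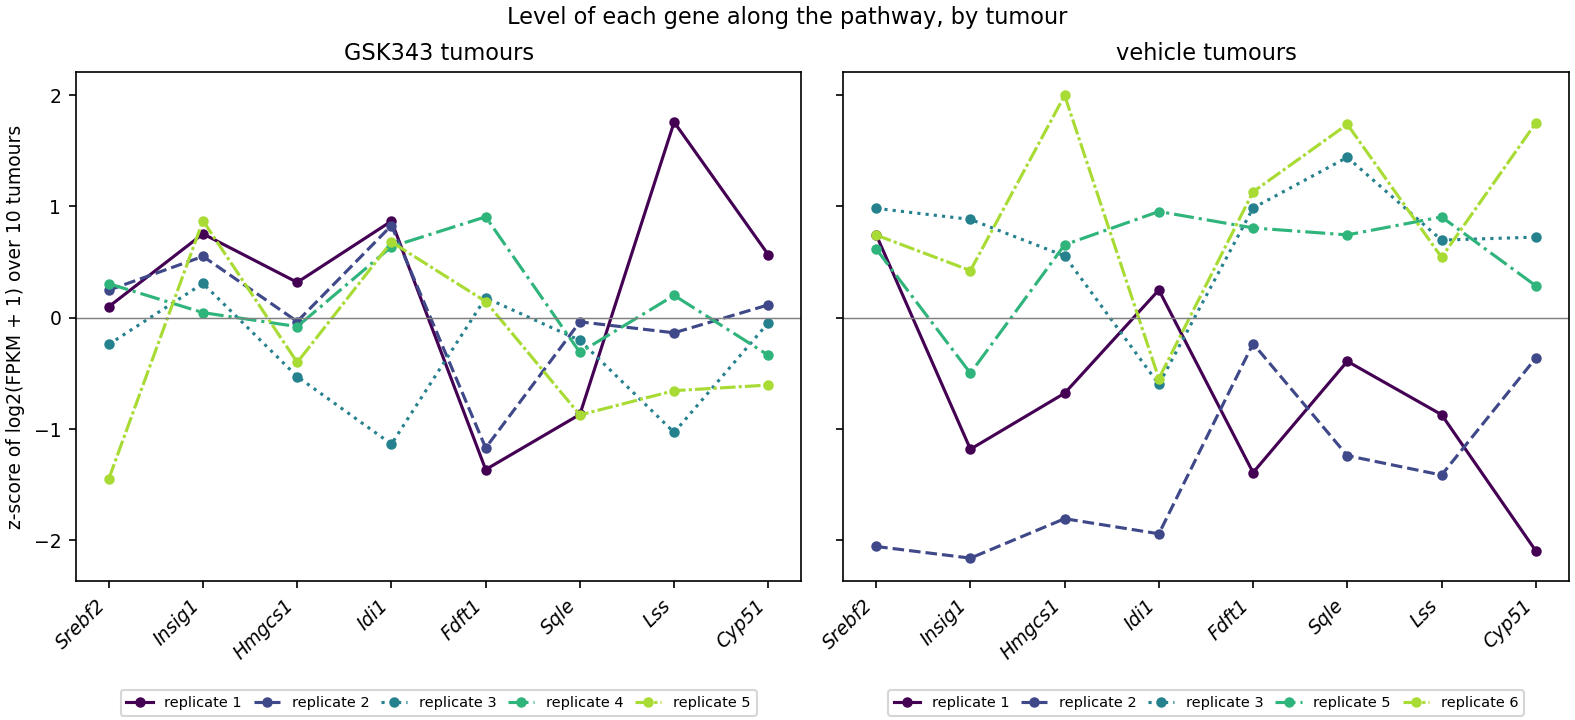
Z-score of log2(FPKM + 1) over all 10 tumours (vertical axis) for the 8 genes in the order of regulators and then pathway steps (horizontal axis), with 1 line per tumour, GSK343 tumours in the left panel and vehicle tumours in the right. In the right panel tumours 3, 5 and 6 run above 0 for most genes and tumours 1 and 2 below it, with mean z-scores of 0.71, 0.56, 0.97, -0.70 and -1.40.

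Of the 28 pairs among the 8 genes, 25 had a positive Pearson r over the 10 tumours on the log2 scale, with a median of 0.47 and a range of -0.22 to 0.83. On deviations from the group means the median was 0.58, and on residuals after the pan-leukocyte score 0.52. With all other tested lines, the median r of a gene was between 0.02, for Fdft1, and 0.12, for Srebf2. The closest pair was Hmgcs1 and Sqle, with r = 0.83 (permutation p = 0.00109, adjusted over the 28 pairs p = 0.0305) and Spearman's rho = 0.78 (permutation p = 0.00996, adjusted p = 0.0930). Leaving out vehicle tumours 2 and 6, the farthest from the median of Hmgcs1, left r = 0.63. Hmgcs1 and Cyp51 had r = 0.74 and rho = 0.88 (permutation p = 0.0240 and 0.00143, adjusted p = 0.134 and 0.0308), and r = 0.79 without the same tumours. Hmgcs1 and Lss had r = 0.73 and rho = 0.87 (permutation p = 0.0143 and 0.00220, adjusted p = 0.134 and 0.0308), and r = 0.87 without them. By r, 6 pairs had an unadjusted permutation p under 0.05 and 1 an adjusted one. No pair had an adjusted p under 0.05 once its 2 farthest tumours were out, when the median r was 0.20. Leaving out 1 tumour at a time gave 0 to 3 such pairs, with 0 in every case except GSK343 tumour 1 (2 pairs) and vehicle tumour 1 (3 pairs).

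Hmgcs1 had the highest median r with the other genes, 0.71, followed by Sqle at 0.62, Lss at 0.55 and Cyp51 at 0.51. Its r was over 0.7 with 4 of the other genes and with 5.96% of all tested lines. That share of lines was the largest among the 8 genes, and the smallest was 0.46%, for Fdft1. Srebf2 was closest to Sqle, with r = 0.73 and rho = 0.72 (permutation p = 0.0210 and 0.0231, adjusted p = 0.134 and 0.108), and r = 0.68 without GSK343 tumour 5 and vehicle tumour 2. With Hmgcs1 it had r = 0.71 and rho = 0.54 (permutation p = 0.0222 and 0.115, adjusted p = 0.134 and 0.293), and r = 0.46 without those tumours. Insig1 and Hmgcs1 had r = 0.60 and rho = 0.47 (permutation p = 0.0775 and 0.178, adjusted p = 0.217 and 0.312). Without vehicle tumours 1 and 2, the farthest from the median of Insig1, r was -0.12. Leaving them out also removes much of the range of Insig1, so it cannot show whether the relation depends on them. Insig1 and Sqle had r = 0.36 and rho = 0.26 (permutation p = 0.305 and 0.470, adjusted p = 0.427 and 0.627). Without vehicle tumours 1 and 2 their r was -0.17. On deviations from the group means, r was 0.82 for Insig1 and Hmgcs1 and 0.84 for Insig1 and Sqle. Both of these values include vehicle tumours 1 and 2. Fdft1 and Idi1 followed the others least, with median r of 0.18 and 0.34. The negative pairs were Idi1 with Fdft1 at -0.22, with Cyp51 at -0.10 and with Sqle at -0.02, and without GSK343 tumour 3 and vehicle tumour 2 the last was -0.75.

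**Figure D5:**
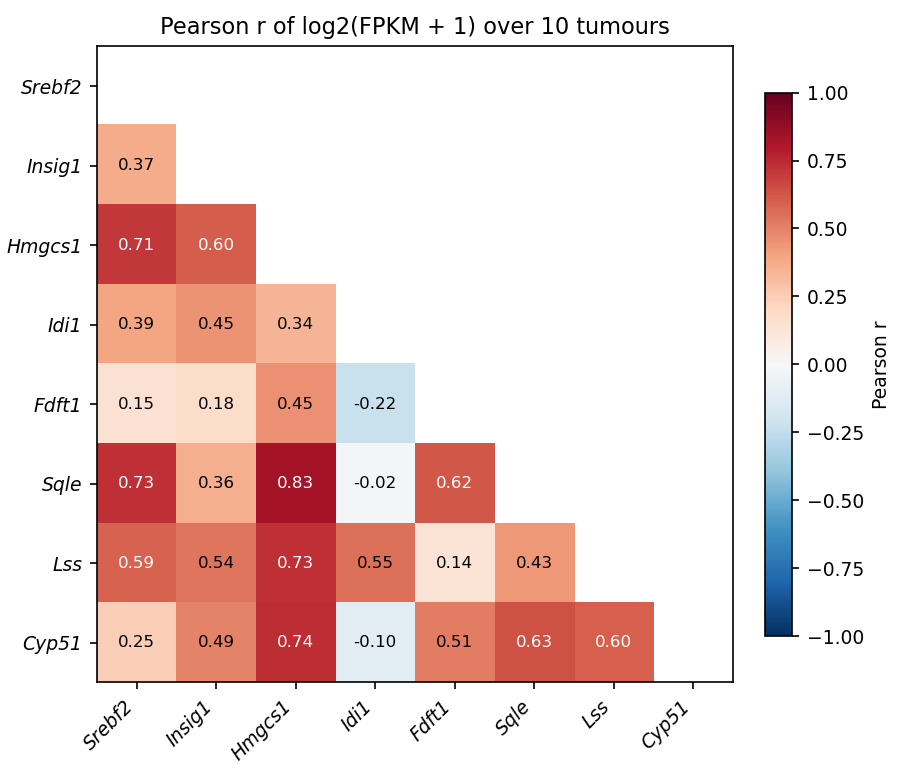
Pearson r of log2(FPKM + 1) over the 10 tumours for each of the 28 pairs (colour and printed value), with the regulators first and then the enzymes in pathway order. The Hmgcs1 column holds the highest value, 0.83 with Sqle, and the 3 negative values all involve Idi1.

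Srebf2 was lower in tumours with a higher leukocyte score. Its r with the pan-leukocyte score, the mean log2 level of the 10 markers, was -0.70 (permutation p = 0.0220, adjusted over the 8 genes p = 0.176) and rho was -0.85 (permutation p = 0.00296, adjusted p = 0.0237). Without vehicle tumours 1 and 6 r was -0.65, and on deviations from the group means -0.78. Sqle had r = -0.62 and rho = -0.56 with the score (permutation p = 0.0572 and 0.0965, adjusted p = 0.229 and 0.386). For the other 6 genes r was between -0.51 and 0.23. On deviations from the group means r was -0.72 for Idi1, -0.57 for Hmgcs1 and -0.45 for Sqle. It was -0.42 for Lss, -0.22 for Insig1, -0.01 for Cyp51 and 0.06 for Fdft1. With the hepatocyte score, the mean log2 level of the 9 hepatocyte and Hepa1-6 markers, r was between -0.48 and 0.35 for the 8 genes. On deviations from the group means it was between -0.60, for Cyp51, and 0.46, for Idi1. With the proliferation score, the mean log2 level of the 7 proliferation markers, r was between 0.07 and 0.55 for the 8 genes. The highest were Cyp51 at 0.55 and Hmgcs1 at 0.54 (permutation p = 0.0949 and 0.105, adjusted p = 0.393 each). For Hmgcs1 rho was 0.71 (permutation p = 0.0268, adjusted p = 0.214). The part of leukocyte content, hepatoma cell content and proliferation in the levels of these genes was not tested.

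The pattern of the 8 genes was compared with that of the other 14488 tested lines as the Pearson r with the mean z-score of the 8 genes over the 10 tumours, a description with no test; all values share the same libraries and scaling. Among the named protein-coding genes with the highest r were Rad23b, a nucleotide excision repair factor, at 0.96, Acap2, a GTPase-activating protein for Arf6, at 0.96, Cttnbp2, a cortactin-binding protein, at 0.95, and Qtrtd1, at 0.95. An r over 0.7 was found for 834 lines, or 5.76%. Among the other 15 enzymes of sterol synthesis it was found for 6, Acat2 and Hsd17b7 among them, the highest being Fdps, farnesyl diphosphate synthase, at 0.89 and Sc5d, the lathosterol desaturase, at 0.89. Of the 12 uptake and lysosomal release genes 2 were over 0.7 and the median was 0.26; Stard4, an intracellular sterol carrier, was at 0.93, while Npc2 and Npc1, which carry cholesterol out of lysosomes, were at -0.68 and -0.42. Apart from those already described, the list genes named by this measure were chosen after their values were seen. Of the other 9 SREBP control genes Mbtps2, the second protease in SREBP cleavage, at 0.84 was over it and Insig2 at 0.23 was not. Of the 11 fatty acid genes Scd1, Acly, Fads1, Fads2 and Scd2 were over 0.7, at 0.87, 0.82, 0.77, 0.73 and 0.71. Fasn, Acaca and Elovl6 were at 0.67, 0.56 and 0.48, while Slc25a1, Acss2 and Me1 were at 0.04, -0.27 and -0.67. None of the 10 storage, efflux and LXR genes was over 0.7, and their median r was -0.28. None of the 9 nonsterol isoprenoid genes was, with a median of 0.30.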

How the data were processed

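Values were the authors' deposited table, 1 value per gene and tumour, whose header names no unit; the deposited values were read as FPKM from the values themselves. The submitters' processing notes name the mm10 genome, StringTie 1.3.3b, HISAT2 2.1.0 and Trimmomatic 0.33. Options, annotation release and strand setting: not given in the sources used here. The deposited FPKM were taken as log2(FPKM + 1), which understates changes of low genes, and tested with limma 3.58.1 (R 4.3.3), intensity trend, two-sided, over 14496 lines (mean of 1 or more), with Benjamini-Hochberg adjustment over all of them and calls under 0.05. The series' design text calls the tumours biological replicates. Correlations used 100000 permutations (SciPy 1.17.1). The fit was checked on simulated data.

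The genes and lists were chosen with earlier results of these data known. Named were the 8 genes, up to 3 list genes with the smallest p per list, every called one, Ezh2, and the 5 named protein-coding genes of most similar pattern; the line with the highest mean was used for a symbol with several. Exon overlaps came from GENCODE M21 and promoter sequences from RefSeq. No protein sequences were used here. Alternatives changed the filter, pseudocount, scaling, variance model, composition covariates, replicate block and tumours included. No fit could include the antibody. There were 10 unnamed empty columns. Some genes of these lists, and 1 of the 5 of most similar pattern, are not reported here.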

Additional observations from a re-analysis of the deposited data

Results flagged for a closer look

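Within a group of 5 tumours, 8 of 70 sets of values held a tumour set apart from the rest by Dixon's criterion. About 1 of 20 independent sets of normal values would meet it. These sets share tumours and hold genes of related pattern, so that rate is no background for them. Among the 8 sterol genes, Idi1 in GSK343 tumour 3 was at 2.57 FPKM, with 7.06 FPKM the nearest in its group, and Srebf2 in vehicle tumour 2 was at 19.5 FPKM, with 42.2 FPKM the nearest. Vehicle tumour 2 also stood apart for Npc2, at 177 FPKM with 124 FPKM the nearest, and for Abcg1, at 9.21 FPKM with 4.43 FPKM the nearest. It had the highest leukocyte marker sum of the vehicle tumours, 1026 FPKM. The other sets were Pmvk in GSK343 tumour 4 at 20.9 FPKM, Ezh2 in GSK343 tumour 2 at 56.3 FPKM, Rad23b in GSK343 tumour 3 at 58.4 FPKM, and Mvd in vehicle tumour 3 at 9.54 FPKM. The causes were not tested.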

How the results depend on the processing

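No sterol gene of the 8 was called under any alternative. Over all lines the 12 calls became 6 without the filter, 3 at a mean of at least 5 FPKM, 7 with quantile normalization, 2 with the pan-leukocyte covariate, 2 with the hepatocyte covariate, 4 without GSK343 tumours 3 and 5 together and 6 without vehicle tumours 1 and 3 together; single tumours left out gave 3 to 96, the highest without vehicle tumour 2 and 37 without GSK343 tumour 1. Deviations of same-numbered tumours had r of -0.11, -0.33, 0.03 and -0.19, beside a median of 0.02 over the other cross-group pairs. No pairing by number was seen, though so few pairs cannot exclude one. With the replicate block 2 lines were called, and the log2 fold changes of Hmgcs1, Cyp51 and Mvd turned to 0.038, 0.091 and -0.029. GSK343 tumour 4 and vehicle tumour 6 have no partner of the same number, so they did not bear on the fold changes of that fit. Hmgcs1 also changed sign when vehicle tumour 6 alone was left out.

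The median log2 fold change of the 8 genes was 0.20 with the pan-leukocyte covariate, and that covariate turned Srebf2 to 0.40, Hmgcs1 to 0.18, Mvd to -0.015, Npc2 to -0.051, Abcg1 to -0.046, Ch25h to -0.14, Fntb to 0.016 and Acss2 to -0.016. Quantile normalization turned Lss to -0.090 and Mvd to -0.041, and tumour weights turned Lss to -0.062. Without GSK343 tumours 3 and 5, Srebf2 was 0.00437 and Cyp51 0.013; without vehicle tumours 1 and 3, Srebf2 was 0.00985. Single tumours left out gave -0.097 to 0.082 for Lss, -0.19 to 0.042 for Hmgcs1, -0.16 to 0.074 for Cyp51 and -0.011 to 0.10 for Mvd. Slc25a1 passed the threshold in 4 alternatives. Insig1, Idi1, Fdft1 and Sqle kept their sign throughout. Gene pairs with an adjusted p under 0.05, 1 in all, numbered 0 under median-of-ratios scaling, 0 without the 2 farthest tumours, where the median r was 0.20, and 0 to 3 with single tumours left out, an alternative added after seeing the data. The causes were not tested. With 5 tumours a group, a gene left uncalled may still differ, and any difference inside its stated interval remains compatible with these data.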
